A study of Mus musculus with 23 samples.

Results

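Lymph node metastases of mouse melanoma were set against primary melanomas that carried little skin epithelium. Of the 22 samples of the series, 12 entered: 6 node metastases, taken by their titles, and 6 primaries, selected on their own expression values. A primary was kept where the mean log2 CPM (counts per 1e6 counts in genes, with 0.25 added) of 17 keratinocyte genes lay below 2. That mean was -1.13 in HPN-5, -0.31 in HP-7, -0.03 in HP-9, 0.89 in HP-5, 1.41 in HPN-7 and 1.83 in HPN-2, the one just inside the limit. HPN-6, at 5.53, was the lowest of those left out and well above the limit, and the other 7 primaries reached up to 9.75. The nodes, which the limit did not choose, ran from -0.51 to 1.20. Keratinocyte genes therefore differ between kept and excluded primaries by construction and carry no test here.

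The series measured RNA of ultraviolet-induced melanomas in mice. HP-5, HP-7 and HP-9 are primary tumours with both copies of Nme1 and Nme2 intact, and HPN-2, HPN-5 and HPN-7 are primary tumours heterozygous for both genes (Nme1+/-, Nme2+/-). All 6 nodes came from HPN animals: nodes 3, 4 and 8 are labelled brachial, node 6 cervical and node 5 by no named site, while node 7 is the sum of a cervical and an inguinal library that share the number 7. The labels give these genotypes at Nme1 and Nme2 and do not spell out what else the codes HP and HPN stand for, nor do they say that numbers stand for animals, and p-values here therefore reflect how much these samples vary.

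A lymph node is built of B cell follicles, T cell zones, lymphatic sinuses and high endothelial venules, the vessels through which lymphocytes enter. Melanoma cells that reach it carry melanocyte genes such as those of melanin synthesis, and their growth is commonly driven through the MAPK cascade, in which ERK switches on transcription of feedback inhibitors and cyclins. RNA of a whole node metastasis mixes tumour and host tissue, and in such bulk samples fewer cells of a type and less RNA per cell cannot be told apart.

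Counts in genes, in units of 1e6, came to 18.9 to 75.0 per node (median 33.1) and 28.9 to 84.9 per primary (median 49.9). Of the reads placed at 1 position, 34.5 to 66.1% lay outside genes in nodes (median 42.8%) and 25.3 to 44.5% in primaries (median 31.7%). Xist, the RNA of the silenced X chromosome, was high in 3 nodes (4, 5 and 6) and 3 primaries (HP-7, HP-9 and HPN-5), and low in the other 3 of each arm. In 2 nodes (7 and 8) and 3 primaries (HP-7, HP-9 and HPN-7) the deposited summary lists reads of low alignment quality, and in the other 7 samples that entry is 0. Marker genes were set beside the tissue labels. Both arms held melanocyte genes at high levels, and every node exceeded every primary in the mean of the B cell and T cell lists, node 4 by the least. Many of these lymphoid genes passed the filter on low counts only through the nodes, as given below. Their means therefore describe the nodes and do not test the labels. Of the 12 samples, a first axis of multidimensional scaling, with 69.9% of the variation, put the nodes at 0.85 (node 4) to 4.08 (node 7) and the primaries at -3.64 to -1.82. These differences in depth, in reads outside genes and in the low-quality entry move with the arms in part. Their part in the results was not tested except where a value is given. Whether an entry of 0 reflects read quality was not tested.

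Expression differed widely between the arms. Of 15914 genes tested, 3062 (19.2%) were higher and 3095 (19.4%) lower in the nodes by edgeR's quasi-likelihood test at a Benjamini-Hochberg adjusted p under 0.05, which is the call used throughout. The median log2 difference over all genes was -0.10. All 6 nodes lay above all 6 primaries in 1784 genes (11.2%) and below them in 854 (5.37%). Against the 3 HPN primaries alone, which share the genotype of the nodes, 3003 of 17292 genes (17.4%) were higher and 1524 (8.81%) were lower. Within the 7 samples that list no reads of low quality, 11.1% of genes were higher and 2.11% lower, and within the 5 that list them 18.1% and 9.37%. Each list below is read against the shares of its own fit. Genes called lower ranged from 2027 without node 6 to 3303 without node 4, and numbered 1537 without nodes 3 and 5, which had over 50% of reads outside genes. Many lymphoid, myeloid, stromal and adipocyte genes passed the filter on low counts, near 0.298 CPM, only through the nodes and so had to differ. Their counts and differences describe the nodes and support nothing else. That level was exceeded in all 6 primaries by 2 of 13 B cell and 5 of 17 T cell genes. The same held for 0 of 10 cytotoxic, 1 of 7 node stroma and 2 of 11 adipocyte genes. It also held for 3 of 11 checkpoint, 2 of 10 neutrophil and 5 of 10 dendritic cell genes.

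**Figure D1:**
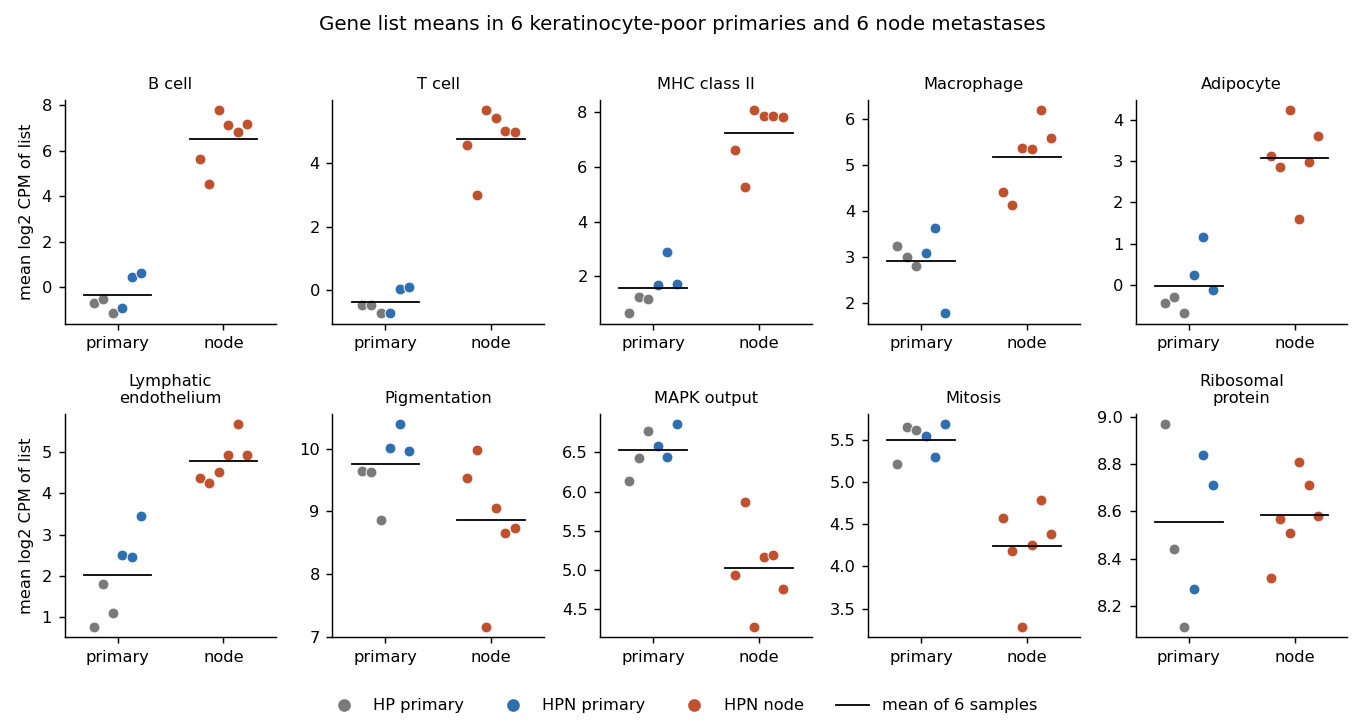
Mean log2 CPM (y axis) of gene lists in each of the 6 keratinocyte-poor primaries (grey HP, blue HPN) and 6 nodes (red; points, 1 per sample; lines mark the mean of each group). B cell, T cell and MHC class II means of the nodes lie above all primaries, whereas means of the MAPK output and mitosis lists lie below all of them; pigmentation means overlap.

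Genes of B lymphocytes stood highest above the primaries. All 13 B cell genes rose (median log2 difference 7.82), and all 13 had no overlap between the arms. The mean of the list ran from -1.14 to 0.65 log2 CPM in primaries and was 4.54 in node 4, 5.62 in node 3 and 6.81 to 7.77 in nodes 5 to 8. Ms4a1, which encodes the surface protein CD20, was at 0.0193 CPM in the lowest primary, 0.303 in the median and 0.894 in the highest, and at 26.8, 180 and 266 CPM in the lowest, median and highest node. The arms were far apart (log2 difference 8.78, SE 0.85). Pax5, the transcription factor that fixes B cell identity, ran from 0.0193 to 0.69 CPM in primaries and from 16.0 to 168 CPM in nodes (8.19). Cd79a, a signalling chain of the B cell receptor, ran from 0.0352 to 1.64 CPM and from 25.9 to 190 CPM (8.0, SE 0.86). Fcmr, the receptor for IgM, the scaffold gene Bank1, the kinase gene Blk and the chemokine receptor gene Ccr6 rose by 8.25, 7.97, 7.81 and 8.15. In each of these genes the lowest node was above the highest primary. Fcrl5, a receptor of B cells, had 2 counts in all primaries together, where 5 of 6 were at 0, and 1476 counts in the nodes at 1.29 to 11.4 CPM. Serpina10, a secreted serpin that inhibits clotting proteases, had 9 and 2476 counts (8.20). Immunoglobulin segments, counted apart from the lists, were higher in 66 of 66 tested (median 8.04).

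Genes of the germinal centre and of plasma cells, the antibody-secreting form of B cells, rose in 10 of 12 tested (median 3.98). Pou2af1, a coactivator of octamer-binding factors in B cells, ran from 0.0352 to 1.42 CPM in primaries and from 31.7 to 301 CPM in nodes (8.31). Jchain, which joins IgM and IgA into polymers, was at 0.675, 3.03 and 12.7 CPM in the lowest, median and highest primary and at 128, 805 and 2674 CPM in nodes (7.81, SE 1.02, adjusted p = 8.17e-05). Mzb1, a chaperone of immunoglobulin assembly, and Tnfrsf17, the plasma cell survival receptor, rose by 8.03 and 6.50, the latter from only 6 counts in the primaries. Primaries and nodes did not overlap in these 4 genes. Among genes of node stroma, 6 of 7 tested rose (median 5.38). Cxcl13, a chemokine that guides B cells to follicles, was at 0, 0.152 and 0.795 CPM in the lowest, median and highest primary and at 9.99, 102 and 226 CPM in nodes (8.61, SE 1.06). Glycam1, a ligand displayed by high endothelial venules, ran from 0 to 0.217 CPM and from 2.26 to 138 CPM (8.61, SE 1.26). The highest level of Glycam1 was in node 5, at 138 CPM, and the lowest in node 4. Ltb, a lymphotoxin subunit needed for node architecture, rose by 7.41 and Il7, a survival cytokine for lymphocytes, by 5.38.

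T cell genes rose in 17 of 17 (median 6.30), again with no overlap in any of the 17, and segments of T cell receptor genes in 19 of 20 (median 7.04). Cd4, the coreceptor of helper T cells, was at 1.08, 3.12 and 3.57 CPM in the lowest, median and highest primary and at 51.1, 192 and 303 CPM in nodes. Its log2 difference was 6.11 (SE 0.49, adjusted p = 9.93e-06). Cd8a, the coreceptor of cytotoxic T cells, ran from 0.0703 to 0.795 CPM in primaries and from 6.67 to 71.5 CPM in nodes (6.97). The signalling genes Cd247 and Lat, both acting directly below the T cell receptor, rose by 5.93 and 5.16. Themis, needed for thymocyte selection, rose by 7.66. Bcl11b, a transcription factor of T cell commitment, ran from 0.27 to 1.09 CPM and from 13.6 CPM (node 4) to 69.3 CPM (6.26). Runx3, which directs the cytotoxic T cell programme, was at 0.773, 1.08 and 2.25 CPM in primaries and at 24.7, 44.2 and 64.1 CPM in nodes (5.19, SE 0.33, adjusted p = 7.74e-06). Other genes with the smallest p among the rises were P2ry10, a lysophospholipid receptor of lymphocytes (6.96), the ganglioside synthase gene St8sia1 (6.85), Arhgap15, a GTPase regulator (5.91), and H2-Eb2 (7.44).

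Of 10 genes of cytotoxic and natural killer cells 9 rose (median 4.41). The receptor gene Klrd1 ran from 0.105 to 0.454 CPM in primaries and from 1.94 to 18.7 CPM in nodes (5.35). Nkg7, a granule protein, Tbx21, the T-box factor of type 1 responses, and Klrk1, the activating receptor NKG2D, rose by 5.49, 4.77 and 4.53. Of 11 immune checkpoint genes tested, 3 of them above 0.298 CPM in all 6 primaries, 9 rose (median 5.88). Btla, an inhibitory receptor of B and T cells, was at 0.211 to 1.22 CPM in primaries and at 31.3 to 315 CPM in nodes (7.84, SE 0.59), with no overlap. Icos, a costimulatory receptor, rose by 7.36, the adhesion receptor gene Cd96 by 6.49 and Pdcd1lg2, a ligand of PD-1, by 5.89. In the primaries together Icos had only 18 counts and Pdcd1lg2 only 13.

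MHC class II genes, whose products show peptides to helper T cells, rose in 10 of 10 (median 5.67), 7 of them above 0.298 CPM in all 6 primaries. Class II genes share promoter elements, the X and Y boxes, at which factors assemble with the coactivator encoded by Ciita, so 4 promoter stretches of measured genes are shown with these letters. Each covers 100 bases on chromosome 17 of GRCm38.p6 as RefSeq gives the gene start, 5′ to 3′ on the strand of the gene, with matches to the X box (searched as AG, any 2 bases, AC, any 2 bases, ATG) and to the Y box (TGATTGG) in capitals; both strands were searched, and the motifs do not overlap.
H2-DMb1: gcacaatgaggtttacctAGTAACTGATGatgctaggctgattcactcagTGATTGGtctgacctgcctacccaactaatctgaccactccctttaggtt
H2-Ob: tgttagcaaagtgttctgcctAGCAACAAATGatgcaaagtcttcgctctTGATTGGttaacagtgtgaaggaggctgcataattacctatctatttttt
H2-Eb1: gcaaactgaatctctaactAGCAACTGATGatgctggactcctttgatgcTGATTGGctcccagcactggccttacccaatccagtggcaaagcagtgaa
H2-Aa: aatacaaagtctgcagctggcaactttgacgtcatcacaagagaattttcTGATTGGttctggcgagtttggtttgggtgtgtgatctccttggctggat
They lie at chr17:34153078-34153177, chr17:34238796-34238895, chr17:34305756-34305855 (plus strand) and chr17:34287824-34287923 (minus strand). In H2-DMb1, H2-Ob and H2-Eb1 the starts of the boxes are 32, 29 and 31 bases apart, and H2-Aa holds the Y box alone in these letters. The search itself covered the 250 bases before each gene start, longer than the stretches printed. Promoters of 7 of the 10 class II genes were matched, and over these 250 bases 6 of the genes held the Y box and 4 the X box, the latter including H2-Oa, whose boxes lie 96 bases apart. Of 32851 promoters searched over the same 250 bases, 7.23% held the Y box, 2.6% the X box and 0.195% both. The letters were chosen after several were tried on these windows, and a match is a description, not a sign of binding.

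The genes with these boxes moved with the rest of the class. H2-Ob, which tunes peptide loading in B cells, was at 0.27, 0.58 and 1.66 CPM in the lowest, median and highest primary and at 31.9, 155 and 301 CPM in nodes (7.46, SE 0.64). H2-DMb1, part of the peptide loader, ran from 0.762 to 7.85 CPM and from 10.6 to 83.1 CPM (4.18). The peptide-binding chains H2-Eb1 and H2-Aa ran from 3.12 to 24.9 and from 3.5 to 29.4 CPM in primaries and from 103 to 736 and from 122 to 843 CPM in nodes (5.58 and 5.64). No primary reached the lowest node in these 4 genes. Ciita itself was at 0.901, 1.88 and 5.17 CPM in primaries and at 40.7, 219 and 387 CPM in nodes (6.51, SE 0.61, adjusted p = 1.09e-05). H2-DMb2 and H2-DMa, further loader subunits, rose by 7.52 and 4.74. Near-identical copies such as H2-DMb1 and H2-DMb2 can exchange reads, so their separate levels are uncertain.

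MHC class I genes, which are active in most cells, rose in 9 of 9 (median 2.12), and all 9 exceeded 0.298 CPM in every primary. H2-K1, a classical class I chain, was at 48.9, 106 and 168 CPM in the lowest, median and highest primary and at 270, 997 and 1181 CPM in nodes (2.95, SE 0.40). Nlrc5, the class I counterpart of Ciita, was at 13.1, 21.1 and 27.7 CPM and at 37.6, 128 and 236 CPM (2.68). Both were higher in every node than in any primary. The immunoproteasome gene Psmb8 rose by 3.45 and the peptide transporter gene Tap1 by 2.5. Of 20 interferon response genes 9 rose and 1 fell (median 0.88), with the antiviral genes Oas2 (2.97), Oas3 (2.57) and Mx1 (2.46) and the transcription factor gene Irf1 (1.44) among the rises. Ifit2 fell by 0.89. Against HPN primaries alone 5 interferon genes rose and none fell by the same edgeR test.

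Macrophage genes rose in 14 of 14 (median 2.20), and 11 of these exceeded 0.298 CPM in all primaries. Csf1r, the receptor on which macrophages depend, was at 13.6, 24.1 and 40.3 CPM in the lowest, median and highest primary and at 65.4, 181 and 274 CPM in nodes, with no overlap (2.71, SE 0.37, adjusted p = 1.12e-04). Mertk, a receptor for apoptotic cells, Aif1, a macrophage actin-binding protein, and the scavenger receptor gene Msr1 rose by 3.03, 3.88 and 2.28. Within the samples that list reads of low quality 14 macrophage genes rose (18.1% of all genes were higher there), and within those that do not 5 rose (11.1% of all genes); the difference was not tested. Dendritic cell genes rose in 9 of 10 tested (median 4.08), among them the growth factor receptor gene Flt3 (4.83), Siglech of plasmacytoid cells (5.23), the receptor gene Clec9a (4.56) and the chemokine gene Ccl22 (5.63). Neutrophil genes rose in 7 of 10 (median 3.73), 4 of 10 without node 7, and 1 of 10 against HPN primaries alone. Csf3r, the receptor for granulocyte growth factor, rose by 3.44. The granule genes Camp and Ltf and the chemokine receptor gene Cxcr2 rose by 4.47, 4.66 and 3.99 and were not called against HPN primaries alone. Of 6 mast cell genes tested 0 were called in either direction by edgeR.

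Of 9 genes of lymphatic endothelium 9 rose (median 2.57), although 2 of 9 were called within the samples that list reads of low quality. Stab2, a scavenger receptor of sinus endothelium, was at 0.193, 0.494 and 3.16 CPM in the lowest, median and highest primary and at 9.93, 57.8 and 95.7 CPM in nodes (5.99). Prox1, the master regulator of lymphatic identity, was at 6.76, 9.08 and 18.5 CPM and at 24.0, 30.4 and 41.7 CPM (1.61, SE 0.25, adjusted p = 3.38e-04). Neither overlapped between the arms. Lyve1, the hyaluronan receptor of lymphatic vessels, and Flt4, the receptor for lymphatic growth factors, rose by 3.0 and 1.75. Of 12 genes of blood endothelium 9 rose (median 1.41), with the junction gene Pecam1 at 2.28, the angiopoietin receptor gene Tek at 1.76 and the clotting factor gene Vwf at 1.43.

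Adipocyte genes rose in 11 of 11 tested (median 4.62), 2 of which exceeded 0.298 CPM in all primaries. Adipoq, the adipokine adiponectin, was at 0.0193, 0.175 and 0.473 CPM in the lowest, median and highest primary and at 1.12, 4.24 and 12.1 CPM in nodes. The lowest node, number 6, was above the highest primary (4.69, SE 0.67), but 5 of 6 primaries were under the level of the filter. Plin1, which coats the lipid droplet, Pck1, an enzyme of glyceride synthesis in fat, and the adipokine gene Retn rose by 4.62, 6.35 and 5.18. Of 16 fibroblast and collagen genes 3 rose and 1 fell (median 0.36), no larger a share than among all genes. Dcn, a matrix proteoglycan, ran from 4.09 to 79.8 CPM in primaries and from 129 to 416 CPM in nodes (3.16), and Dpt and the growth factor receptor gene Pdgfra rose by 4.03 and 2.85. Col5a1, a fibrillar collagen gene, fell by 0.81. It was not called against HPN primaries alone, nor in the full comparison with DESeq2's size factors or upper-quartile scaling. The call was also lost on leaving out any 1 of HP-7, HP-9, HPN-2 and nodes 3, 5, 6, 7 and 8 (adjusted p = 0.067 to 0.101). Among 9 genes of pericytes and smooth muscle 6 rose, including Myh11 (2.60) and Pdgfrb (1.49), and Mcam and Cspg4 fell by 1.68 and 1.72. Mcam and Cspg4 are also known as melanoma surface antigens, and Mcam was not called against HPN primaries alone (adjusted p = 0.0776).

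Myelin and epithelial genes gave single large rises. Mbp, the myelin basic protein gene, whose locus also yields transcripts in immune cells, was at 2.43, 2.94 and 5.86 CPM in the lowest, median and highest primary and at 19.1, 66.4 and 72.6 CPM in nodes (4.05, SE 0.36, adjusted p = 9.93e-06). Of the 7 tested genes of Schwann cells Mbp and Mag (1.5) were called, and 4 were called without HP-9 or HPN-2. Spint2, an inhibitor of the protease that activates HGF, was at 0.728, 1.14 and 1.69 CPM and at 10.2, 29.1 and 48.4 CPM (4.58, SE 0.41). St14, the epithelial membrane protease matriptase, ran from 0.237 to 0.809 CPM and from 2.64 to 22.1 CPM (4.95), and the adhesion gene Epcam from 0.0197 to 0.703 CPM and from 0.94 to 8.77 CPM (3.95). The arms did not overlap in any of these 4 genes. Low keratinocyte genes chose these primaries, so low levels of other epithelial genes there can follow from that choice. The ranges of Spint2, St14 and Epcam therefore describe the samples and test nothing. Against keratinocyte-rich primaries their differences were negative, as given below. Hgf, the ligand of the Met receptor, ran from 227 to 316 CPM in primaries and from 32.9 to 224 CPM in nodes, which did not overlap (-1.31, SE 0.40, adjusted p = 0.0203; adjusted p = 0.0809 against HPN primaries alone). Met ran from 1252 to 2064 CPM in primaries and from 212 to 1429 CPM in nodes, which overlap (-1.08, adjusted p = 0.0311). The call for Met was lost without HPN-5, HPN-7, node 6, node 7 or node 8 (adjusted p = 0.0537 to 0.0751). Of the 9 genes of the Hgf and Met axis 4 rose and 3 fell, and the adaptor gene Gab1 was the third fall (-1.0).

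Melanocyte genes were high in both arms. Of 16 pigmentation genes 1 fell (median -0.83), and none of the 16 separated the arms. Mean log2 CPM of the list was 8.86 in HP-9 and 9.62 to 10.39 in the other primaries, and 9.98 in node 4, 9.54 in node 3, 9.06 in node 6, 8.74 in node 8, 8.66 in node 7 and 7.16 in node 5. Tyr, the rate-limiting enzyme of melanin synthesis, was at 1511, 2323 and 2858 CPM in the lowest, median and highest primary and at 239, 572 and 2067 CPM in nodes. Only node 4, the highest node, reached the range of the primaries (log2 difference -1.53, SE 0.47, adjusted p = 0.0209). Tyr was not called against HPN primaries alone (-1.32, adjusted p = 0.13) or without nodes 3 and 5. The melanin enzyme gene Dct ran from 13639 to 27829 CPM and from 2063 to 19280 CPM, and did not pass (-1.23, adjusted p = 0.0505). Pmel, the fibre protein of melanosomes, did not pass either (-1.16, adjusted p = 0.0734). The count of 1 pigmentation gene became 7 without node 4, 3 without HP-9 and 2 without node 3.

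Of 10 regulators of the lineage 5 fell and 1 rose (median -1.13), and 2 fell against HPN primaries alone. Tfap2a, a transcription factor of neural crest and melanocytes, was at 167, 209 and 289 CPM in the lowest, median and highest primary and at 27.0, 58.8 and 115 CPM in nodes, with no overlap (-1.72, adjusted p = 5.22e-04). Sox10, which maintains the lineage, was at 488, 808 and 927 CPM and at 57.4, 188 and 552 CPM, and node 4 overlapped the primaries (-1.63, adjusted p = 0.0102). Sox10 was not called against HPN primaries alone (adjusted p = 0.052). Erbb3, a growth factor receptor under Sox10 control, fell by 1.68, while Mitf, the master regulator of pigment genes, did not pass (-1.02, adjusted p = 0.114). The other falls were Mc1r, the melanocortin receptor gene (-1.44), and the transcription factor gene Pax3 (-1.24), neither called against HPN primaries alone (adjusted p = 0.079 and 0.0775). The rise was Lef1, a Wnt effector that lymphocytes also express, from 0.703 to 15.2 CPM in primaries to 17.7 to 76.1 CPM in nodes (2.87). Beside these values stand the B cell list means given above, which were lowest in node 4 and highest in node 5; their part in the result was not tested.

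Neural crest genes fell in 3 of 12 tested and rose in 2, near the shares of all genes (19.4% lower and 19.2% higher). Nes, the intermediate filament nestin, was at 9.71, 27.5 and 140 CPM in the lowest, median and highest primary and at 4.84, 5.74 and 7.48 CPM in nodes (-3.11, SE 0.55, adjusted p = 7.57e-04). Foxd3, a repressor active in early neural crest, ran from 50.6 to 212 CPM and from 5.19 to 40.5 CPM (-2.34). Neither gene overlapped. Ngfr, the neurotrophin receptor of undifferentiated melanoma cells, ran from 11.8 to 639 CPM in primaries, with HP-9 highest, and from 12.4 to 38.0 CPM in nodes (-3.13). Without HP-9 its difference was -2.08, and against HPN primaries alone it was -0.43 (adjusted p = 0.46). The receptor kinase gene Axl rose by 1.70 but was not called without node 7 (adjusted p = 0.0549) or node 8 (0.0511), and the matrix gene Tgfbi rose by 2.59, so the 2 rises became 1 without node 7 or 8.

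RNA of the listed MAPK output genes was lower in the nodes than in the keratinocyte-poor primaries. The nodes also hold lymphoid tissue, and its part in these falls was not tested. All 13 listed genes fell (median -1.59), against 19.4% of all genes, 12 of 13 fell against HPN primaries alone, and all nodes lay below all primaries in 6. The mean of the list ran from 6.13 to 6.86 log2 CPM in primaries and was 5.86 in node 4, 4.27 in node 5 and 4.75 to 5.19 in the other nodes. Etv4, an ETS factor induced by ERK, was at 7.49, 10.3 and 15.1 CPM in the lowest, median and highest primary and at 1.32, 2.39 and 3.08 CPM in nodes (-2.19, SE 0.26, adjusted p = 4.43e-05). Ccnd1, the cyclin that ERK signalling induces in G1, was at 995, 1173 and 2155 CPM and at 166, 284 and 493 CPM (-2.14, SE 0.30, adjusted p = 1.26e-04). In both genes every node was below every primary. The feedback inhibitors Spry2 and Spry1 fell by 1.82 and 1.75, and the AP-1 gene Fosl1 by 2.94 from levels of only 0.411 to 8.27 CPM. Within samples that list no reads of low quality 3 of 13 fell, where 2.11% of all genes fell. Within samples that list them 10 of 13 fell, where 9.37% of all genes fell. Among 13 immediate early genes 3 fell and 2 rose, near the shares of all genes (19.4% lower and 19.2% higher). Fos fell by 1.94 and Jun by 1.49, of which Jun was not called against HPN primaries alone (0.14) and stood at -0.92 without HP-9, while Egr2 and Zfp36 rose by 1.67 and 1.29.

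Genes of cell division fell together. All 17 mitosis genes fell (median -1.23), 14 of them with every node below every primary, and 14 of 17 fell against HPN primaries alone. With the animal of the 2 shared numbers as a fixed block, 8 of 17 fell, in a fit with 1 residual degree of freedom. In that fit 6.06% of all genes fell. Birc5, Ttk and Mki67 were among the list members not called under it. Sgo1 and Zwilch, which the list does not hold, were not called either. Within samples without and with listed reads of low quality 11 and 15 of the 17 fell. Mxd3, a MAX partner expressed in S phase, was at 16.3, 19.1 and 21.3 CPM in the lowest, median and highest primary and at 2.38, 5.46 and 6.06 CPM in nodes (-1.95, SE 0.22, adjusted p = 3.11e-05). Aurka, the spindle pole kinase gene, was at 16.6, 17.8 and 19.97 CPM and at 3.83, 8.28 and 9.33 CPM (-1.22). Primaries held Mxd3 and Aurka within a narrow range, and the nodes lay wholly below it. The spindle gene Hmmr, the checkpoint genes Zwilch and Bub1, the cohesin protector gene Sgo1 and the survival gene Birc5 fell by 1.48, 1.26, 1.34, 1.30 and 1.26. Mki67, the proliferation antigen, fell by 1.10 and was not called without node 6 (adjusted p = 0.0732) or against HPN primaries alone (0.0616). Of 15 DNA replication genes 9 fell (median -0.82) and 4 of 15 fell against HPN primaries alone and 1 of 15 under the fixed block, which left Pcna, Tyms, Pole and Prim1 uncalled. Pcna, the polymerase clamp, was at 125, 136 and 180 CPM and at 48.4, 81.9 and 98.9 CPM (-0.82), and Tyms, which makes thymidylate, Pole and Prim1 fell by 1.23, 1.01 and 0.91. The mean of the mitosis list ran from 5.22 to 5.69 log2 CPM in primaries and was 4.79 in node 7, 4.58 in node 3, 4.39 in node 8, 4.25 in node 6, 4.18 in node 4 and 3.28 in node 5. Node 4, with the lowest B cell mean, was thus second lowest in mitosis genes and highest in pigmentation genes. The part of the lymphoid content of the nodes in the falls of MAPK output, division and metabolic genes was not tested.

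**Figure D2:**
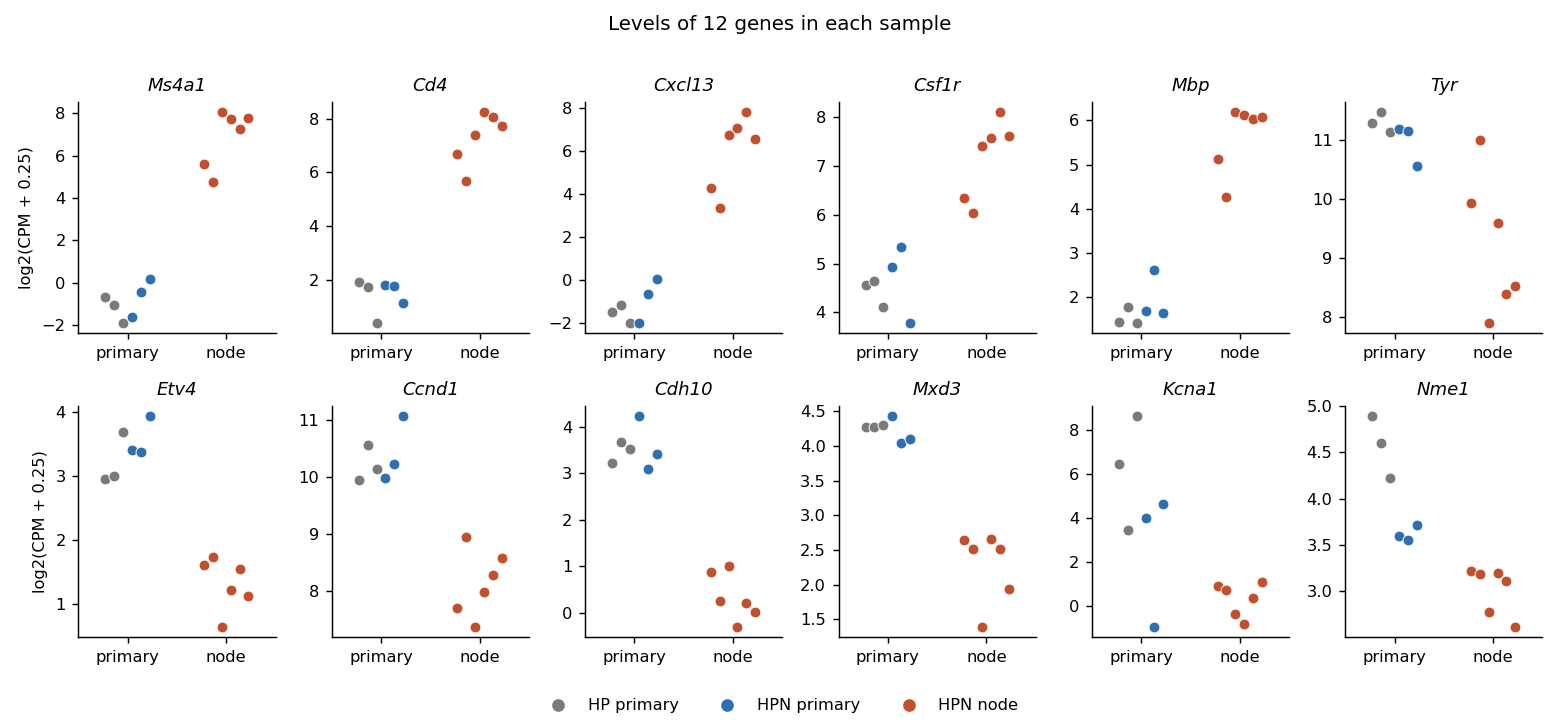
Log2(CPM + 0.25) (y axis) of 12 genes in the 6 primaries (grey HP, blue HPN) and 6 nodes (red), 1 point per sample. Ms4a1, Cd4, Cxcl13, Csf1r and Mbp lie higher in every node than in any primary. Etv4, Ccnd1, Cdh10, Mxd3 and the targeted gene Nme1 lie lower in every node, for Nme1 against primaries of mixed genotype. Tyr and Kcna1 are shown for their spread.

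Metabolic lists fell in part, and their counts changed when single samples were left out. Calls over all genes changed too, with 3095 genes lower in the fit as reported. That number was 2121 without HPN-5, 2922 without HPN-7, and 2381, 2027 and 2091 without nodes 5, 6 and 8. Of 18 genes of glycolysis and hypoxia 9 fell (median -1.08), and 9 fell against HPN primaries alone. By edgeR 0 fell within samples that list no reads of low quality, and 0 within those that list them. The count was 5 without HPN-5 or node 5, 4 without HPN-7, node 6 or node 8, and 1 without nodes 3 and 5 together, where 9.29% of all genes were lower and 17.3% higher. Ldha, lactate dehydrogenase, was at 411, 614 and 1780 CPM in the lowest, median and highest primary and at 170, 272 and 496 CPM in nodes, which overlap (-1.33), and the glycolytic genes Pgk1, Eno1 and Pkm fell by 1.32, 1.22 and 1.22. Of 25 genes of oxidative phosphorylation 14 fell (median -0.57), 9 without node 5, 6 or 8, 6 without HPN-5 and 6 against HPN primaries alone. Ndufb9 of complex I, Cox6a1 of complex IV and the ATP synthase gene Atp5g1 fell by 1.04, 0.94 and 0.85. Of 26 ribosomal protein genes 0 were called in either direction by edgeR, and the ribosomal mean ran from 8.11 to 8.97 log2 CPM in primaries and from 8.32 to 8.81 in nodes. Of 11 heat shock genes 4 fell (median -0.45), Bag3, a cochaperone, by 1.41, and the count was 1 or 2 without HP-7, HP-9, HPN-2, HPN-5, HPN-7 or node 3, 6, 7 or 8. Of 3 hair follicle genes tested 0 were called by edgeR, and of 3 sebaceous gland genes the sterol acyltransferase gene Soat1 rose by 0.59, with 2 or 3 of 4 sebaceous genes called without any 1 primary and 2 of 4 without node 3.

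Among 14 p53 target genes 7 fell and 2 rose. Cdkn1a, the cell cycle inhibitor p21, was at 110, 242 and 319 CPM in the lowest, median and highest primary and at 39.7, 71.0 and 118 CPM in nodes, where only the highest node overlapped (-1.72, adjusted p = 8.03e-04). Plk2 and the death effector gene Bax fell by 1.60 and 0.70. The death receptor gene Fas rose, from 0.748 to 1.70 CPM up to 2.67 to 14.4 CPM (3.07), as did Trp53inp1 (1.55). The 7 falls became 3 without HPN-5 and 4 without node 6 or node 7. Of 12 genes of the mesenchymal transition 5 fell, with the filament gene Vim, the cadherin gene Cdh2 and Zeb2 at -1.12, -0.94 and -0.85, and these 5 became 3 without node 3, 6, 7 or 8. Of 9 genes of the YAP and TEAD axis 5 fell, including Tead1, Yap1 and Wwtr1 (-1.03, -0.86 and -0.97). These 5 became 3 without HP-9, HPN-5, node 5 or node 7 and 2 without node 6 or node 8, the list's 1 rise was lost without node 7 or 8, and Wwtr1 was not called without node 6 (adjusted p = 0.0563) or node 8 (0.0509).

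Matrix proteases and their inhibitors fell in 8 of 14 and rose in 1. The 8 became 5 without node 6, 7 or 8, and the 1 became 2 without HPN-7. Adamts1, which cleaves proteoglycans, is outside this list and not among the 8. It was at 417, 668 and 1299 CPM in the lowest, median and highest primary and at 123, 150 and 228 CPM in nodes (-2.16, SE 0.28). Adam12, a membrane protease, was at 220, 361 and 423 CPM and at 30.5, 67.5 and 119 CPM (-2.25, adjusted p = 1.05e-04). Neither overlapped between the arms. Timp1, an inhibitor, and Mmp14, a membrane collagenase, fell by 1.51 and 0.87. Mmp9, a gelatinase that myeloid cells secrete, was the rise, from 0.137 to 5.96 CPM in primaries to 7.73 to 60.6 CPM in nodes (3.67).

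Nme1 and Nme2 encode kinases that exchange phosphate between nucleotides, and Nme1 was first described through its low level in metastatic melanoma cells. Both are the targeted genes, and the primaries here mix 2 genotypes. Nme1 was at 29.5, 24.0 and 18.4 CPM in HP-5, HP-7 and HP-9, and at 11.8, 11.5 and 12.9 CPM in HPN-2, HPN-5 and HPN-7. In nodes 3 to 8 it was at 9.07, 8.87, 6.60, 8.92, 8.40 and 5.88 CPM. Each genotype of primary and the nodes thus held ranges that did not overlap. Against the mixed primaries Nme1 fell by 1.18 (SE 0.25, adjusted p = 0.00315), and against HPN primaries alone, the comparison free of genotype, its difference was -0.57 and did not pass (adjusted p = 0.074). Nme2 was under the filter, with 114 counts in primaries and 44 in nodes, and shares exons with the read-through transcript Gm20390.

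Among the largest falls, Cdh10 separated the arms. This type II cadherin gene was at 8.32, 10.8 and 18.6 CPM in the lowest, median and highest primary and at 0.559, 0.92 and 1.76 CPM in nodes (-3.44, SE 0.33, adjusted p = 1.19e-05). Its difference was -3.49 against HPN primaries alone, and -3.33 and -3.74 within the sets of samples split by listed reads of low quality. Rnf157, a ubiquitin ligase gene, ran from 82.8 to 120 CPM and from 51.0 to 60.0 CPM (-0.92, SE 0.11, adjusted p = 4.72e-05). Other large falls came with wide differences among the primaries. Kcna1, a potassium channel gene, was at 0.276 CPM in HPN-5 and 394 CPM in HP-9 with a median of 20.1, and at 0.324 to 1.86 CPM in nodes (-6.27, SE 1.31, adjusted p = 0.00263; -4.60 without HP-9). The neural genes Slitrk6 and Lrrtm3 had log2 differences of -5.76 and -4.84 (Lrrtm3 -3.35 without HPN-7), and the membrane protease gene Mmp17 -4.51 (-3.16 without HP-9). Cadm4, an adhesion gene, ran from 0.586 to 108 CPM in primaries (-4.06), with -2.04 without HP-9 and 0.07 against HPN primaries alone. The progesterone receptor gene Pgr and the sodium leak channel gene Nalcn had -3.31 and -3.30, and HPN-7 was low in both, at 0.199 and 0.596 CPM.

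The largest falls also named genes whose call hung on 1 sample. Rab3c, a vesicle GTPase gene, was not called without HP-5 (-1.31, adjusted p = 0.219), nor was Gjb6, a gap junction gene of skin, without HPN-2 (-0.81, adjusted p = 0.445). Both were also lost without several other samples, as were Prl2c5, Vat1l and Nox3, with adjusted p up to 0.0581, 0.0975 and 0.07. The muscle genes Myh1 and Acta1 were lost without HP-7, HPN-5 or any of nodes 5 to 8 (adjusted p = 0.0523 to 0.129). Skeletal muscle genes fell in 4 of 10 tested, and in 1 without HP-7 or node 5, 0 without HPN-5, node 6, node 7 or node 8, and 7 without HP-9. Of 7 genes of red cells 5 fell, between 2 and 3 on leaving out any of HP-5, HP-9, HPN-7 and nodes 3, 4, 5, 6 and 8. The haemoglobin genes Hba-a1 and Hbb-bs had -2.54 and -2.96, and near-identical globin copies make the separate levels uncertain.

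**Figure D3:**
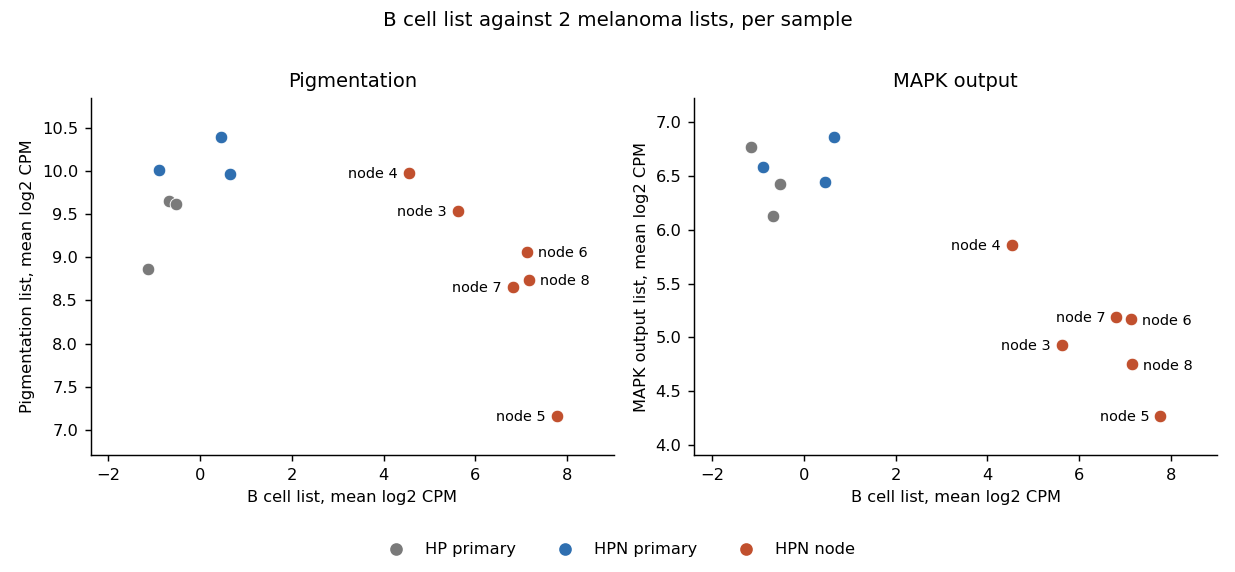
Mean log2 CPM of the B cell list (x axis) against that of melanoma lists (y axis) in the 6 nodes (red) and 6 primaries (grey HP, blue HPN), 1 point per sample. Node 4 has the lowest B cell mean among nodes (4.54) and the highest pigmentation mean (9.98), and node 5 the highest B cell mean (7.77) and the lowest pigmentation mean (7.16).

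The nodes differed among themselves in lymphoid content. Node 4 held the lowest B cell, T cell, MHC class II and macrophage means (4.54, 3.0, 5.27 and 4.12 log2 CPM), and node 3 the next lowest in each (5.62, 4.56, 6.63 and 4.42). Node 5 had the highest B cell, T cell and MHC class II means (7.77, 5.65 and 8.07), and node 7 the highest macrophage mean (6.19). Cd4 followed another order, with 51.1 CPM in node 4, 102 in node 3, 170 in node 5, 214 in node 8, 270 in node 7 and 303 in node 6. Adipocyte means were 4.24 in node 5, 1.59 in node 6 and 2.87 to 3.62 in the others. The mast cell mean ranged widely, with 3.17 in node 5, 3.44 in node 7 and -1.18 in the lowest node. No pooled correlation is given for 6 nodes of shared origin.

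The same nodes were set beside the 8 keratinocyte-rich primaries (HP-1, 3, 4 and 6, and HPN-1, 3, 4 and 6), and since both comparisons share the nodes their values stand side by side only. Against rich primaries, 2075 of 17209 genes (12.1%) were higher and 2543 (14.8%) lower, with a median of -0.05. B cell genes gave 13 of 13 higher in both, with medians of 7.82 against poor and 7.75 against rich primaries. T cell genes gave 17 of 17 in both, with medians of 6.30 and 3.51. MHC class II medians were 5.67 and 3.0, and macrophage genes gave 14 of 14 higher against poor and 3 of 14 higher against rich primaries (medians 2.20 and 0.06). Adipocyte genes gave 11 of 11 higher and then 0 of 12 (medians 4.62 and -1.19). All 13 MAPK output genes were lower against poor primaries and 2 against rich (medians -1.59 and -0.24), and mitosis genes gave 17 of 17 lower and then 0 of 17 by edgeR (medians -1.23 and -0.21). Fibroblast and collagen genes gave 1 of 16 lower and then 13 of 16 (medians 0.36 and -1.62). Keratinocyte genes, which chose the primaries, had medians of -0.68 over 13 tested and -8.83 over 17. Of these genes, Dsc3 and Sfn ran from 8.61 to 80 and from 5.9 to 17.6 CPM in nodes. In poor primaries the 2 genes ran from 0.197 to 3.34 and from 1.91 to 5.61 CPM. Low levels of the list chose the poor primaries, so these ranges describe the samples and test nothing.

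**Figure D4:**
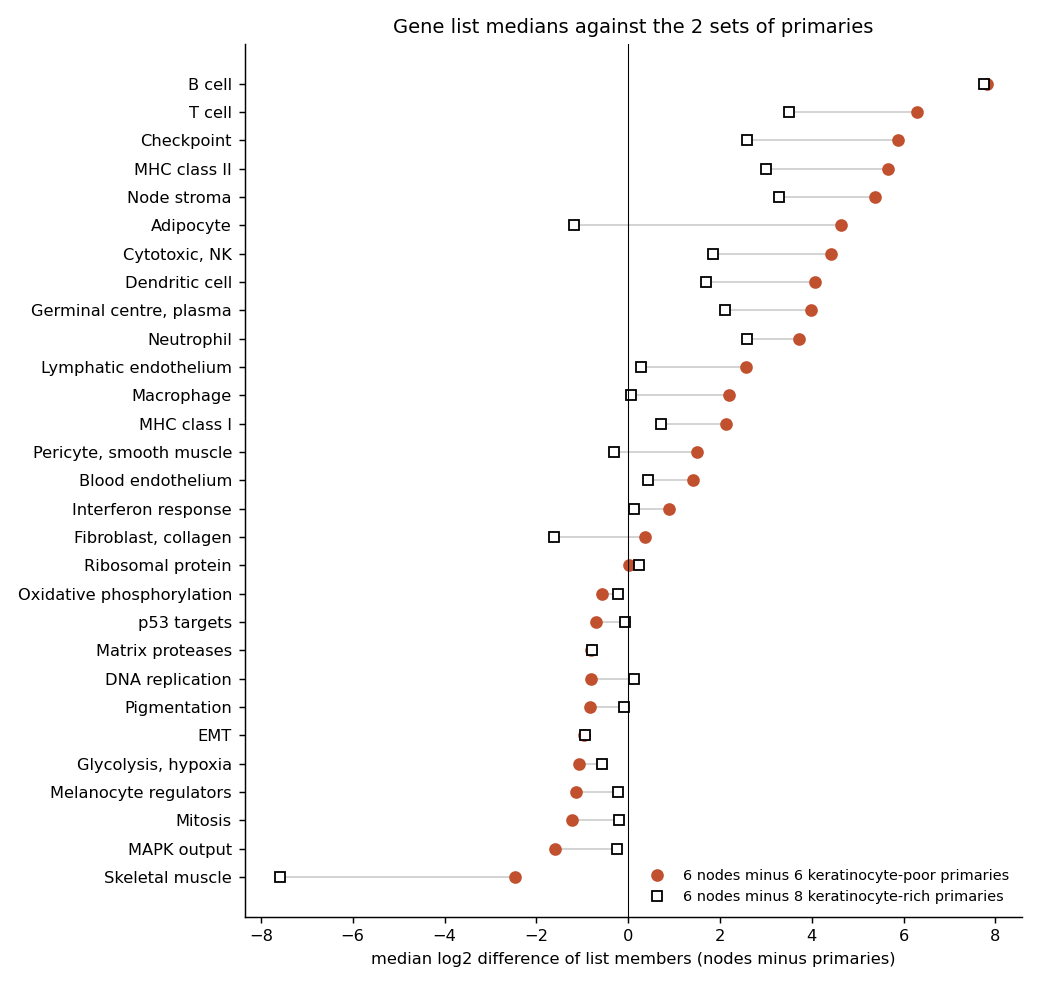
Median log2 difference, node minus primary (x axis), of each gene list (rows) against keratinocyte-poor and keratinocyte-rich primaries, 1 point per comparison, with the same 6 nodes in both. Medians of the B cell list nearly coincide (7.82 and 7.75), whereas those of the adipocyte, macrophage, mitosis and MAPK output lists lie apart.

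Among single genes, Etv4 had log2 differences of -2.19 against poor and -2.38 against rich primaries, while Ccnd1 had -2.14 and 0.06, Mxd3 -1.95 and -0.37, and Cdh10 -3.44 and -0.44. Csf1r had 2.71 and 0.01, Adipoq 4.69 and -1.05, and Mbp 4.05 and 0.51. Spint2, St14 and Epcam had 4.58, 4.95 and 3.95 against poor primaries and -1.18, -1.61 and -3.67 against rich ones. Tyr had -1.53 and -0.09. The difference between the comparisons was not tested.

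HPN numbers 5 and 7 have both a node and a keratinocyte-poor primary, which allowed a look within a number, with no test. From HPN-5 to node 5, and from HPN-7 to node 7, the log2 difference was 8.48 and 7.04 for Ms4a1, and 5.63 and 6.95 for Cd4. Csf1r differed by 2.07 and 4.31, Adipoq by 4.09 and 3.37 and Mbp by 3.58 and 4.39. Among falls, Ccnd1 differed by -2.86 and -2.78, Etv4 by -2.74 and -2.39, Cdh10 by -2.09 and -3.21, and Mxd3 by -2.65 and -1.58. Tyr differed by -3.26 and -2.17 and Nme1 by -0.78 and -0.60. Both numbers moved the same way in each of these genes, whereas Nalcn differed by -4.42 in number 5 and by 2.81 in number 7. Animal as a random block in voom, a fit in which 21.3% of all genes were higher and 22.3% lower, gave 17 of 17 falls in mitosis, 10 of 15 in DNA replication, 13 of 13 in MAPK output and 8 of 16 in pigmentation genes. As a fixed block in edgeR, with 12.6% of all genes higher and 6.06% lower, it gave 11 of 13 falls in MAPK output, 7 of 16 in pigmentation, 6 of 25 in oxidative phosphorylation, 2 of 12 in mesenchymal transition and 4 of 14 in matrix protease genes. The fixed block gave rises in 6 of 14 macrophage, 5 of 9 MHC class I and 4 of 8 mast cell genes, and in all B cell and T cell genes. Nme1, Rnf157 and Col5a1 were not called under it, and 1 of 11 heat shock genes fell. Under either block the erythroid list had 2 of 7 falls and the muscle list 0. Whether these changes come from the pairing was not tested, since voom without the random term also gave other counts than edgeR.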

How the data were processed

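Per the labels, total RNA went through a column kit into directional libraries. Per the submitters' processing notes, bcl2fastq 1.8.4 and STAR 2.5.3a were used, and the build was mm9; for the counting tool, annotation and strand setting, the sources used here give nothing. The deposited values are the authors' raw counts of reads per gene, 1 file per library, with 37620 identifiers each. Summary entries that name no gene were left out of library sizes and tests. Symbols came by identifier from GENCODE vM21 (87.45% matched, and the 4723 without a match hold 1.704% of counts), used for names only, since that build differs. The members, gene lists and most tests were chosen with earlier results of these data known.

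Libraries 7a and 7b were summed. Nodes and keratinocyte-poor primaries were fitted alone in edgeR 4.0.16 (R 4.3.3): filterByExpr, TMM, robust glmQLFit and glmQLFTest, Benjamini-Hochberg adjustment over all genes tested, threshold 0.05. CPM values use TMM library sizes, and values in brackets after gene names are log2 differences, node minus primary. The script was tested on simulated counts. Of 547 genes in 43 lists 544 were matched; lists are given by counts and medians, with no set test.

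Named genes were the 12 largest rises and 15 largest falls averaging 5 CPM or more in the higher arm, the 8 smallest p each way at that level, up to 4 members per list, and the targeted genes; segments of antigen receptor genes, pseudogenes and predicted genes were excluded. Cd8a, Mitf, Mc1r, Pax3, Hgf, Met, Fosl1, Lyve1, Ifit2, Mki67, Bub1, Mcam, Cspg4, Trp53inp1, H2-Aa, H2-Eb1, H2-DMb1, Dsc3 and Sfn, where outside that rule, were added after their values were seen. HPN-5 and node 5, and HPN-7 and node 7, were read as samples of 1 animal each by their titles, and limma 3.58.1 (voom) gave a correlation of 0.213 within an animal. Alternatives were DESeq2 1.42.0 and its size factors, upper-quartile scaling, voom with quality weights, other filters, all primaries in 1 fit and HPN primaries alone. Further ones were the low-quality entry as a term or a split, animal as a block, and each sample left out. Python 3.11.15 with scipy 1.17.1 and pandas 2.3.3 served for the rest.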

Additional observations from a re-analysis of the deposited data

Results flagged for a closer look

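A sample far from the others of its arm was sought in 172 groups of 6 values (list means and named genes, in log2 CPM with 0.25 added), by the gap to the nearest sample over the whole range, against Dixon's 95% critical value. Chance flags about 1 in 20 such groups, so the 9 that passed are about as many as chance gives. The hair follicle list mean was 4.43 in HPN-2 and -0.74 to 0.16 in the other primaries, and Gjb6, a gap junction gene of skin, was 6.08 there and 0.35 to 2.0 elsewhere. In HPN-7 the checkpoint list mean was 1.01 against -0.02 to 0.34, Pgr was -1.16 against 3.44 to 5.80 and Nalcn was -0.24 against 4.65 to 6.99. The fibroblast and collagen mean was 4.36 in HP-5 and 5.68 to 6.42 in the other primaries. Fcrl5 was -1.79 in HPN-5 and -2.0, the value of a count of 0, in the other 5, so this rests on 2 counts. Among nodes, node 4 had 1.29 for Prl2c5 against -1.60 to -0.53, and 3.79 for Bcl11b against 5.51 to 6.12.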

How the results depend on the processing

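The fit as reported called 6157 genes; leaving out single samples gave 4801 (without node 8) to 7104 (without node 4) calls, and 2027 (without node 6) to 3303 (without node 4) genes lower. Genes higher numbered 4630 with no filter. Genes lower numbered 1524 against HPN primaries alone and 1537 without nodes 3 and 5, a setting chosen after seeing the data. Within samples without reads of low quality the fit called 2205 genes (1854 higher, 351 lower), and within those with them 1660 lower; fewer samples enter each. With animal as a fixed replicate block it called 3604 (1172 lower), and as a random block 6937, against 6201 in voom without it. The other counts over all genes stayed within 1.5 times of the main count, and those against rich primaries ran from 3839 to 5550 on leaving out single samples. The share of calls that were higher was 49.7%, and 56.0%, 57.6% and 68.2% with DESeq2's size factors, upper-quartile scaling and no filter. Most named genes were chosen by size or p in this same fit, and many of the rises passed the filter only through the nodes. The counts that follow are therefore no independent support. Of 93 named rises 92 or more were called without any single sample and 89 against HPN primaries alone. Within samples without and with listed reads of low quality 77 and 82 were. Of 75 named falls 59 to 72, 54, and 23 and 44 were. In voom the random block kept 93 and 56, against 93 and 52 without it, and the fixed block in edgeR kept 83 and 36. Direction turned for Prl2c5 (0.27) and Nox3 (0.17) within samples without reads of low quality and for Gjb6 (0.51) within those with them. The cause was not tested.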
